A study of Gorilla gorilla gorilla with 13 samples.

Results

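The reelin receptors LRP8 and VLDLR and their intracellular partners DAB1, FYN, SRC, CRK and CRKL were followed across 4 cell populations sorted from gorilla cerebral organoids. They are 7 of the 18137 genes in a table of raw read counts, chosen by gene symbol as the receiving side of reelin signalling, and all 7 were among the 16804 genes with enough reads to test. Cerebral organoids are spheres of developing brain tissue derived in culture from pluripotent cells. All came from GC1, a single induced pluripotent stem cell line of Gorilla gorilla gorilla, with no other treatment or genotype in the labels, and were taken at week 8 of culture. Per the labels, 13 libraries of 10000 cells each covered BCL11B+ neurons (N, n = 2), basal intermediate progenitor cells (bIP, n = 3), basal radial glia (bRG, n = 4) and apical radial glia (aRG, n = 4). The labels do not state whether the libraries within a population had separate organoid cultures as their source, and p-values therefore rest on a spread between libraries that may be technical. Values given as ± are SD over the libraries of a population for levels, and SE for log2 fold changes.

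Reelin is a large secreted glycoprotein of the developing cortex, made mainly by Cajal-Retzius neurons near the cortical surface. It binds LRP8 (also called ApoER2) and VLDLR, members of the low density lipoprotein receptor family, whose cytoplasmic tails hold the adaptor DAB1. Receptor clustering lets the Src family kinases FYN and SRC phosphorylate DAB1 on tyrosine, and phosphorylated DAB1 recruits the adaptors CRK and CRKL, which carry the signal to RAP1 through the exchange factor RAPGEF1. In mice, loss of the ligand, of both receptors or of DAB1 disturbs the layering of the cortex.

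The labels were set against marker genes. Summed radial glia markers (9 of 9 genes in the table) lay at 124 to 163 CPM in N, 138 to 168 in bIP, 2436 to 4359 in bRG and 3126 to 4204 in aRG. CPM are read counts scaled to a common library size. Summed pan-neuronal markers (7 of 7) lay at 3359 to 3645 CPM in N, 2468 to 2823 in bIP, 408 to 665 in bRG and 381 to 809 in aRG. The bIP label was less well borne out, since the summed intermediate progenitor markers (7 of 7) were at 109 to 173 CPM in N, 122 to 440 in bIP, 651 to 820 in bRG and 252 to 518 in aRG. EOMES, the defining marker of these progenitors, measured 6.26 ± 0.677 CPM in N, 85.3 ± 49.1 in bIP, 367 ± 92.9 in bRG and 143 ± 84.4 in aRG. The libraries labelled bIP also held most of the Cajal-Retzius signal, with 1385 to 3707 CPM summed over 7 markers. The sum was 210 to 252 CPM in N, 52.2 to 146 in bRG and 64.1 to 153 in aRG. RELN made up most of it in bIP (2048 of 2605 CPM on average). TP73, LHX1, LHX5, EBF3 and NHLH2 were also highest on average in bIP. CALB2 averaged 143 CPM in N and 122 in bIP, and made up most of the N sum (231 CPM on average). Excitatory neuron markers (7 of 7) summed to 2801 to 3406 CPM in N, 1586 to 1805 in bIP, 376 to 622 in bRG and 356 to 493 in aRG. Division markers (8 of 8) summed to 61.6 to 77.8 CPM in N, 73.7 to 98.4 in bIP, 637 to 889 in bRG and 2537 to 5143 in aRG. Outer radial glia markers (6 of 6) summed to 1142 to 1435 CPM in N, 598 to 916 in bIP, 1193 to 2127 in bRG and 1693 to 2272 in aRG. PTPRZ1 made up most of that sum in N and bIP (1161 CPM in N, 568 in bIP, 907 in bRG and 1101 in aRG). The other 5 markers were each higher on average in both bRG and aRG than in N and bIP. They did not bear out the bRG label against aRG, since HOPX averaged 65.7 CPM in bRG and 150 in aRG. MOXD1 (67.5 and 110), LIFR (425 and 479) and FAM107A (7.35 and 11.8) were also lower on average in bRG. TNC was higher there (91.0 and 86.7). Choroid plexus and hem markers (6 of 6) summed to 101 to 335 CPM in N, 120 to 295 in bIP, 247 to 1313 in bRG and 1616 to 7845 in aRG, most of it TTR (4512 CPM on average in aRG), while RSPO2 and LMX1A were highest on average in bRG and KCNJ13 in N. Mesenchyme markers (6 of 6) summed to 27.6 to 73.3 CPM in N, 60.3 to 106 in bIP, 69.6 to 97.4 in bRG and 108 to 334 in aRG. Interneuron markers stayed at or below 30 CPM and those of endothelium and microglia at or below 131 CPM in all libraries. No marker in these lists was at 0 in a whole population. In sorted bulk RNA, fewer cells of a type and less RNA per cell cannot be told apart.

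Across the 4 populations, LRP8, VLDLR, DAB1 and SRC differed by edgeR's quasi-likelihood F-test (adjusted p = 0.0124, 0.0058, 2.91e-07 and 0.000655), 4 of 7 members where 22.5% of all genes tested were called. FYN (adjusted p = 0.724), CRK (0.988) and CRKL (0.295) were not called. Each of the 4 called genes was higher in N than in both kinds of radial glia. DAB1 and SRC were also called in both comparisons of bIP with radial glia.

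**Figure D1:**
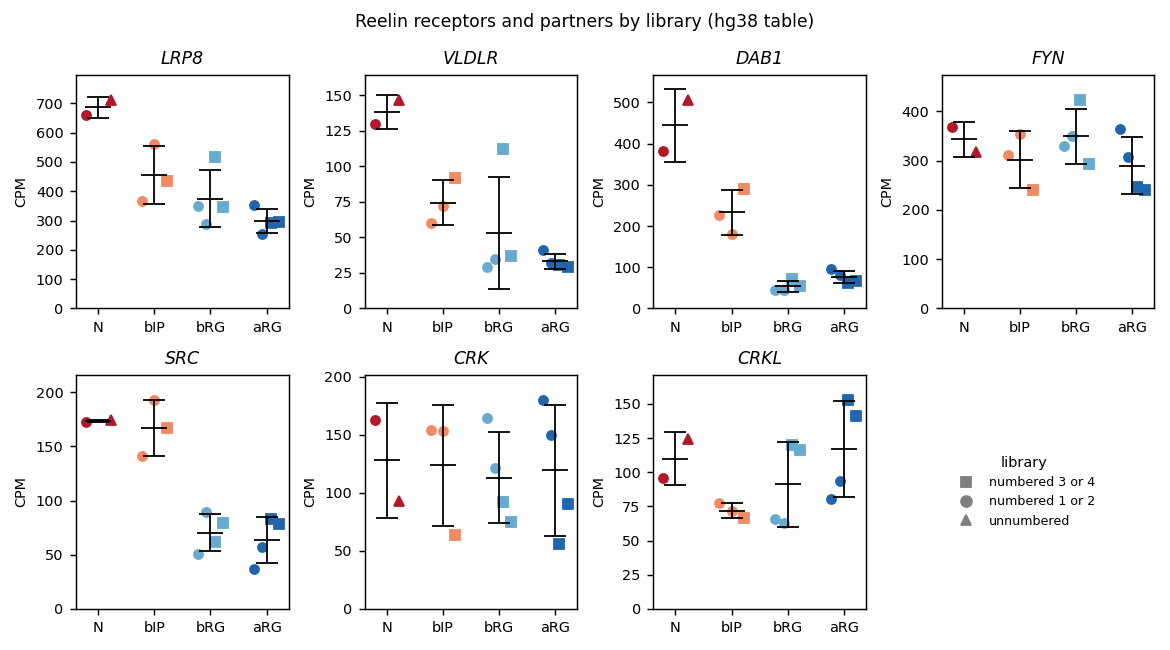
CPM of each member (vertical axes, linear and starting at 0) in the 13 libraries by population, N, bIP, bRG and aRG from left to right, with bars for mean ± SD. Symbols mark the library number. The N and bIP libraries of DAB1 (180 to 507 CPM) and SRC (141 to 193 CPM) all lie above the 8 radial glia libraries. CRK overlaps between all populations, while the bIP libraries of CRKL (66.6 to 77.2 CPM) lie below all those of N and aRG.

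LRP8, the receptor with the most reads, measured 662 and 713 CPM in N. It measured 367, 562 and 436 CPM in bIP, 350, 288, 516 and 346 in bRG, and 352, 253, 292 and 296 in aRG. The N libraries lay above all others, and the other 3 populations stood in the order bIP, bRG, aRG by mean, with bIP above every aRG library and overlapping bRG. LRP8 was 2.31-fold higher in N than in aRG, or 1.20 ± 0.26 on the log2 scale (edgeR adjusted p = 0.00272). Against bRG LRP8 was 0.87 ± 0.27 higher on the log2 scale (edgeR adjusted p = 0.026). That call was lost when bRG library 1, 2 or 4 or either N library was left out (edgeR adjusted p = 0.0551 to 0.17). Between neighbours in the order, LRP8 was not called for N against bIP (log2 fold change 0.60, edgeR adjusted p = 0.753), bIP against bRG (0.28, 0.496) or bRG against aRG (0.33, 0.708). For bIP against aRG, LRP8 had a log2 fold change of 0.61 that edgeR did not call (adjusted p = 0.09), and DESeq2 did (adjusted p = 0.0447), as did edgeR without bRG library 3 (adjusted p = 0.0264).

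VLDLR measured 130 and 147 CPM in N and 60.0, 72.1 and 91.6 in bIP. It measured 29.4, 34.5, 112 and 36.8 CPM in bRG and 40.8, 32.3, 30.3 and 29.0 in aRG. bRG library 3 stood above all 3 bIP libraries, and the other 3 bRG libraries lay within the range of aRG. VLDLR was 4.18-fold higher in N than in aRG (2.06 ± 0.41 on the log2 scale, edgeR adjusted p = 0.00124) and 2.59-fold higher than in bRG (1.37 ± 0.41 on the log2 scale, edgeR adjusted p = 0.0239). It was 2.26-fold higher in bIP than in aRG (1.18 ± 0.38 on the log2 scale, edgeR adjusted p = 0.0356). That call was lost when any 1 of the 3 bIP libraries, or aRG library 2, 3 or 4, was left out (edgeR adjusted p = 0.0506 to 0.139). For N against bRG the VLDLR call was lost without bRG library 1, 2 or 4 and without either N library (edgeR adjusted p = 0.0554 to 0.15).

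The VLDLR values for bRG depended on bRG library 3. For N against bRG the log2 fold change of 1.37 became 2.04 without that library (edgeR adjusted p = 1.94e-05). For bIP against bRG it was 0.49 with all libraries (edgeR adjusted p = 0.438) and 1.15 without that library (edgeR adjusted p = 0.00186). Likewise the difference for bRG against aRG was 0.69 on the log2 scale with it (edgeR adjusted p = 0.569) and 0.03 without it. LRP8 and FYN also had their highest radial glia value in bRG library 3, and this library had the fewest genes with a count, 16534, against 17055 to 17756 in the others. The part of that difference in the result was not tested.

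DAB1, the adaptor that binds both receptors, showed the largest differences of the 7 genes in the 4 comparisons of N or bIP with radial glia. It measured 382 and 507 CPM in N, 228, 180 and 291 in bIP, 43.9, 45.8, 72.1 and 53.4 in bRG, and 95.2, 80.1, 62.3 and 65.6 in aRG. All 5 N and bIP libraries lay above all 8 radial glia libraries, by a gap between 95.2 and 180 CPM. DAB1 was 8.25-fold higher in N than in bRG (3.05 ± 0.28 on the log2 scale, edgeR adjusted p = 1.06e-06) and 5.87-fold higher than in aRG (2.55 ± 0.27 on the log2 scale, edgeR adjusted p = 2.97e-06). It was 4.32-fold higher in bIP than in bRG (2.11 ± 0.25 on the log2 scale, edgeR adjusted p = 1.5e-05) and 3.08-fold higher than in aRG (1.62 ± 0.25 on the log2 scale, edgeR adjusted p = 0.000128). These 4 calls held when each library was left out in turn.

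On either side of that gap, DAB1 was not called. N against bIP gave a log2 fold change of 0.93 (95% interval 0.31 to 1.55, edgeR adjusted p = 0.43), although the N libraries did not overlap the bIP ones. bRG against aRG gave -0.49 (95% interval -0.99 to 0.00274, edgeR adjusted p = 0.531), with aRG higher on average and the ranges overlapping. The pan-neuronal and division marker sums given above separate the same 5 libraries from the same 8, and their part in the differences of DAB1, SRC and the receptors was not tested.

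SRC, the kinase, followed the same division between libraries with a smaller difference. It measured 173 and 174 CPM in N and 141, 193 and 167 in bIP. It measured 50.8, 89.3, 61.7 and 79.5 CPM in bRG and 36.5, 57.1, 82.6 and 78.3 in aRG. SRC was 2.47-fold higher in N than in bRG (1.30 ± 0.31 on the log2 scale, edgeR adjusted p = 0.0051) and 2.72-fold higher than in aRG (1.45 ± 0.31 on the log2 scale, edgeR adjusted p = 0.00206). In bIP it was 2.37-fold higher than in bRG (1.25 ± 0.28 on the log2 scale, edgeR adjusted p = 0.00398) and 2.62-fold higher than in aRG (1.39 ± 0.28 on the log2 scale, edgeR adjusted p = 0.0014). All 4 calls held when each library was left out in turn, but they rest on the hg38 table alone, since the gorGor6 table held 377 reads of SRC over 13 libraries, against 12581 in the hg38 table, and gave no call.

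FYN, the Src family kinase best known for DAB1 phosphorylation in mouse neurons, showed no called difference between populations. It measured 343 ± 35.5 CPM in N (n = 2), 302 ± 57.6 in bIP (n = 3), 349 ± 55.3 in bRG (n = 4) and 290 ± 58.0 in aRG (n = 4). Its order by mean was bRG, N, bIP, aRG, and no neighbours in that order differed beyond their spread. The log2 difference of FYN between bIP and bRG was -0.21 (95% interval -0.69 to 0.28), and between N and aRG it was 0.24 (95% interval -0.30 to 0.79). The interval for N against aRG includes differences as large as the 0.61 of LRP8 between bIP and aRG.

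CRK and CRKL, the paralogous adaptors that bind phosphorylated DAB1, were not called in any comparison. CRK measured 128 ± 49.2 CPM in N (n = 2), 123 ± 52.0 in bIP (n = 3), 113 ± 39.1 in bRG (n = 4) and 119 ± 55.9 in aRG (n = 4). CRKL measured 110 ± 19.4 CPM in N, 71.9 ± 5.29 in bIP, 91.3 ± 31.2 in bRG and 117 ± 35.3 in aRG, with the same n. The 3 bIP libraries of CRKL (66.6 to 77.2 CPM) lay below all 4 aRG libraries (80.6 to 153 CPM), and the log2 difference of -0.70 was not called (95% interval -1.32 to -0.09, edgeR adjusted p = 0.115). A fit of only bIP and aRG called it (edgeR adjusted p = 0.0484). The interval of CRK for N against aRG ran from -0.83 to 1.04 on the log2 scale and includes a 2-fold higher level in N.

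**Figure D2:**
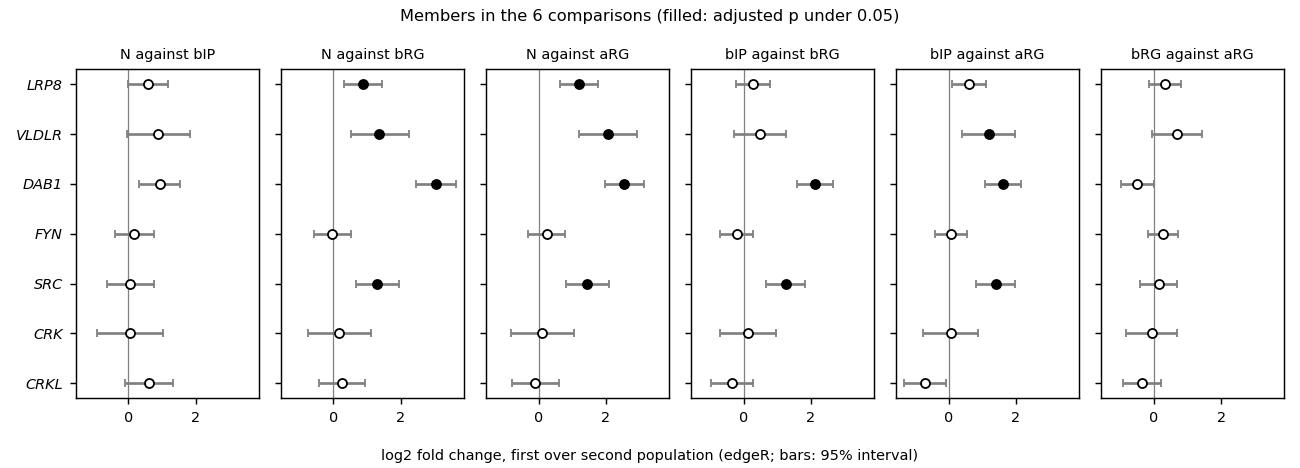
Log2 fold change of each member in the 6 comparisons, first named population over the second (horizontal axis), with 95% intervals from edgeR. Filled points have an adjusted p under 0.05. DAB1 and SRC are filled in all 4 comparisons of N or bIP with radial glia, and no point is filled for N against bIP or bRG against aRG.

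By comparison, 4 of 7 members were called higher in N than in bRG, where 10.6% of all genes tested were called higher and 19.8% in either direction. Likewise 4 of 7 were called higher in N than in aRG (10.4% of all genes, and 19.8% in either direction). For bIP against bRG 2 of 7 were called higher (8.25% of all genes, 16.7% in either direction), and for bIP against aRG 3 of 7 (8.47% of all genes, 18.4% in either direction). None was called lower. For N against bIP edgeR called 0 of 7 (0.113% of all genes in either direction), 1 had an unadjusted p under 0.05, and DESeq2 called 0. For bRG against aRG edgeR called 0 of 7 (1.26% of all genes, 0.0298% higher and 1.23% lower), none had an unadjusted p under 0.05, and DESeq2 called 0. Without bRG library 3 the counts were 4, 4, 3, 4, 0 and 0 in the same order of comparisons, LRP8 being added for bIP against aRG and VLDLR for bIP against bRG. The median log2 fold change of the members was 0.87 for N against bRG, beside -0.09 over all genes, and 1.20 for N against aRG, beside -0.05. It was 0.28 for bIP against bRG, beside -0.09, and 0.61 for bIP against aRG, beside -0.04. Comparisons that share a population share its libraries and are not independent.

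In N against bIP the libraries did not overlap for 4 of 7 members, as they did not for 31.0% of all genes. All 4 (LRP8, VLDLR, DAB1 and CRKL) were higher in N. For N against bRG the libraries did not overlap for 4 of 7 members (36.5% of all genes), for N against aRG 4 (44.1%), for bIP against bRG 2 (26.0%), for bIP against aRG 5 (32.4%) and for bRG against aRG 0 (5.52%).

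Pairs of related genes were also compared within each library, where the scaling between libraries drops out. These are ratios of read counts, not corrected for transcript length, so only their change across populations is described. There were 4.98 reads of LRP8 for each VLDLR read in N, 6.09 in bIP, 8.09 in bRG and 9.02 in aRG (geometric means). The exact permutation test of the 3 ratios over all 900900 assignments of libraries to populations gave p = 0.103 for this one (adjusted p = 0.155). Without bRG library 3, whose ratio was 4.60, the same exact test gave an adjusted p of 0.0257. FYN to SRC was 1.97 in N, 1.80 in bIP, 5.04 in bRG and 4.70 in aRG, and all 5 N and bIP libraries (1.44 to 2.21) lay below all 8 radial glia libraries (2.98 to 9.95). That ratio gave p = 0.0178 in the exact permutation test and an adjusted p of 0.0535. It passed without aRG library 1 (exact adjusted p = 0.0195) or aRG library 3 (0.0471). In the gorGor6 table, with few SRC reads, the exact adjusted p was 0.793.

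CRKL to CRK did not follow the populations (exact permutation p = 0.796, adjusted p = 0.796). It followed the library numbers, a split chosen after its values were seen. In the 5 libraries numbered 3 or 4 the log2 ratio lay between 0.07 and 1.44, and in the 7 numbered 1 or 2 between -1.32 and -0.68. The unnumbered N library stood at 0.41. Within aRG, CRKL averaged 147 CPM in libraries 3 and 4 and 87.0 in libraries 1 and 2, while CRK averaged 73.4 CPM in libraries 3 and 4 and 165 in libraries 1 and 2. Within bRG, CRKL averaged 118 CPM in libraries 3 and 4 and 64.3 in libraries 1 and 2, and CRK 83.6 CPM in libraries 3 and 4 and 143 in libraries 1 and 2. Within bIP, CRKL went the other way, with 66.6 CPM in library 3 and 74.5 on average in libraries 1 and 2, and CRK measured 63.5 CPM in library 3 and 154 on average in libraries 1 and 2.

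CRK and CRKL were the 2 of 7 members that did not overlap between these library numbers in the same direction in both bRG and aRG, as did 18.3% of all genes, a share near that of the members. Within bRG alone 45.3% of all genes did not overlap between the numbers, and within aRG 43.6%. VLDLR, DAB1, FYN and SRC also did not overlap between the numbers within bRG or within aRG. DAB1 averaged 62.8 CPM in bRG libraries 3 and 4 and 44.9 in libraries 1 and 2, but 63.9 CPM in aRG libraries 3 and 4 and 87.6 in aRG libraries 1 and 2. SRC averaged 80.5 CPM in aRG libraries 3 and 4 and 46.8 in libraries 1 and 2. What the numbers stand for is not given in the sources used here.

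**Figure D3:**
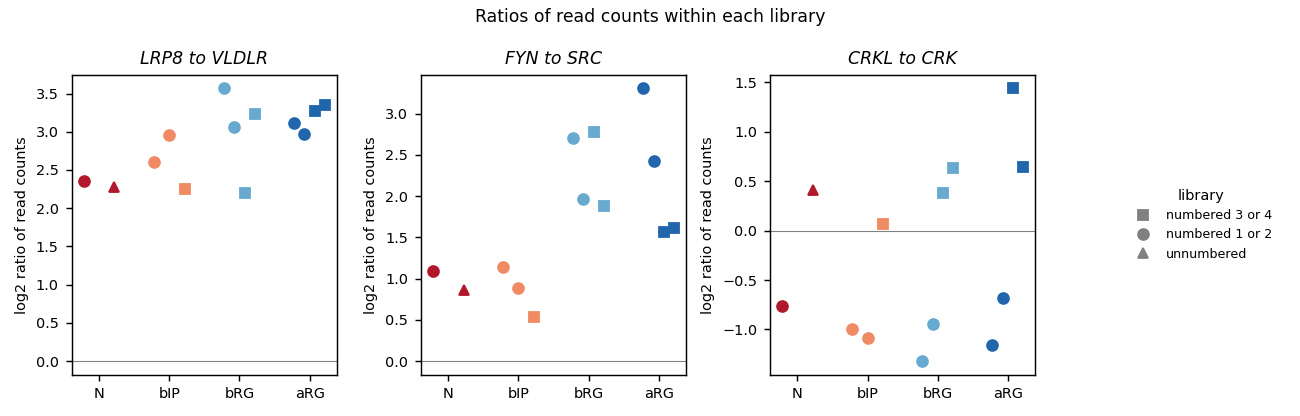
Log2 ratio of read counts within each library for LRP8 to VLDLR, FYN to SRC and CRKL to CRK (vertical axes), by population, with symbols for the library number. FYN to SRC is lower in every N and bIP library than in every radial glia library, and CRKL to CRK is above 0 in the 5 libraries numbered 3 or 4 and below 0 in the 7 numbered 1 or 2.

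The same libraries had been counted a second time in a table named for the gorilla build gorGor6. LRP8, DAB1, CRK, CRKL and FYN held 140% to 202% of their hg38 counts there, where the median of 11020 genes with at least 1000 hg38 counts was 174.8%. VLDLR held 53.0%, less than all but 5.4% of those genes, and SRC held 377 reads in place of 12581, a lower share than all but 3.12% of those genes. DAB1 kept its 4 calls in the gorGor6 table, with log2 fold changes of 3.07 for N against bRG, 2.62 for N against aRG, 2.15 for bIP against bRG and 1.71 for bIP against aRG. LRP8 was called for N against aRG and N against bRG there too (edgeR adjusted p = 0.00689 and 0.0388). VLDLR kept 1 of 3 calls, N against aRG, with a log2 fold change of 1.62 (edgeR adjusted p = 0.0288). No SRC difference was called there (edgeR adjusted p = 0.593 to 0.998), at 0.34 to 3.34 CPM per library, and for N against bRG its sign turned (-0.34).

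**Figure D4:**
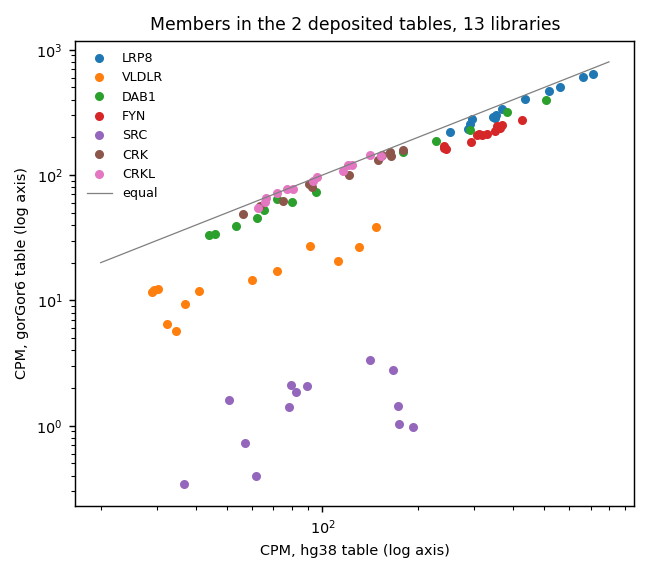
CPM of the 7 members in the 13 libraries, in the gorGor6 table (vertical, log axis) against the hg38 table (horizontal, log axis), with a line of equality. LRP8, DAB1, FYN, CRK and CRKL lie near the line, VLDLR well below it, and SRC lies at 0.34 to 3.34 CPM in the gorGor6 table.

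Other genes of the reelin pathway, from the ligand to the cytoskeleton, were counted by role. Of 59 genes listed, 58 were tested. DCX was not analysed here, and the list was drawn up with earlier results known. In bIP against bRG 17 of the 58 rose and 3 fell (8.25% and 8.44% of all genes), with a median log2 fold change of 0.33 beside -0.09 over all genes. Against aRG 13 rose and 5 fell in bIP (8.47% and 9.98% of all genes). In N 18 rose and 4 fell against bRG (10.6% and 9.13% of all genes), and 14 rose and 5 fell against aRG (10.4% and 9.37% of all genes). For N against bIP edgeR called RELN alone, lower in N, a call that ended without either N library (edgeR adjusted p = 0.0607 and 0.233), with 6 at an unadjusted p under 0.05 and 1 called by DESeq2. For bRG against aRG edgeR called 0, with 9 at an unadjusted p under 0.05 and 2 called by DESeq2. Besides the call of RELN, leaving out 1 library moved these counts of rises or falls in N or bIP against radial glia beyond 1.5 times, to 9 rises for N against aRG without N library 1, and to 8 and 11 rises for bIP against aRG and bRG without bIP library 2. Without bRG library 2, and by DESeq2 with all libraries, 6 genes fell in bIP against bRG.

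RELN, the ligand, measured 64.1 ± 12.9 CPM in N, 2048 ± 1001 in bIP, 45.8 ± 20.4 in bRG and 38.6 ± 22.7 in aRG. With RELN, the smallest p-values for bIP against bRG were those of MAPT and CDK5R1. MAPT, the microtubule-associated protein tau and also one of the pan-neuronal markers, measured 436 ± 71.0 CPM in bIP and 61.5 ± 13.3 in bRG (2.82 ± 0.29 on the log2 scale, edgeR adjusted p = 3.44e-06). CDK5R1, the p35 activator of the kinase CDK5, measured 194 ± 29.2 CPM in bIP and 48.0 ± 7.58 in bRG (2.01 ± 0.22 on the log2 scale, edgeR adjusted p = 5.48e-06). For N against bRG they were CDK5R1, MAPT and APBB1, an adaptor of the amyloid precursor protein that measured 311 ± 12.2 CPM in N and 78.1 ± 9.97 in bRG.

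By role, the ligand, its cleavage and other receptor ligands had 4 rises and 1 fall among 9 genes in bIP against bRG. Of all genes tested there, 8.25% were called higher and 8.44% lower. The receptor relatives, chaperone and trafficking group had 1 rise and 1 fall among 6, the group of other DAB1 partners and DAB1 turnover had 3 rises among 11, and the group of RAPGEF1, RAP1 and adhesion genes had 2 rises and 1 fall among 9. The LIS1 complex and CDK5 group had 3 rises among 9, and the PI3K, AKT, GSK3B and cytoskeleton group had 4 among 14. The following genes were chosen after their values were seen. ADAMTS3, a protease that cleaves reelin, measured 191 ± 57.5 CPM in N, 97.1 ± 68.6 in bIP, 8.15 ± 6.17 in bRG and 11.6 ± 8.62 in aRG, and rose in N and in bIP against each kind of radial glia (edgeR adjusted p = 0.000466 to 0.00512). RAPGEF1, the exchange factor bound by CRK and CRKL, measured 134 ± 31.6 CPM in N, 118 ± 23.9 in bIP, 52.2 ± 16.1 in bRG and 56.1 ± 6.64 in aRG. Its 4 rises (edgeR adjusted p = 0.00292 to 0.00849) were not called in the gorGor6 table (0.154 to 0.211). Its calls in N ended without N library 1 (edgeR adjusted p = 0.107 and 0.069), and its call for bIP against aRG ended without bIP library 2 (0.055).

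NECTIN3, an adhesion molecule downstream of reelin and RAP1 in mouse cortex, measured 26.0 ± 5.20 CPM in N, 21.3 ± 6.16 in bIP, 96.9 ± 36.9 in bRG and 107 ± 14.6 in aRG. It fell in N and in bIP against each kind of radial glia (edgeR adjusted p = 3.17e-05 to 0.000973). YES1, another Src family kinase, measured 8.47 ± 2.75 CPM in N, 13.6 ± 3.86 in bIP, 25.9 ± 7.02 in bRG and 23.2 ± 8.40 in aRG. It fell in N against bRG and aRG (edgeR adjusted p = 0.0153 and 0.0255), the opposite direction to SRC. These calls of YES1 ended without the unnumbered N library (edgeR adjusted p = 0.198 and 0.261), and the one against aRG also without N library 1 (0.0654) or aRG library 4 (0.0589). Neither was called in the gorGor6 table (edgeR adjusted p = 0.0737 against bRG and 0.0913 against aRG).

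**Figure D5:**
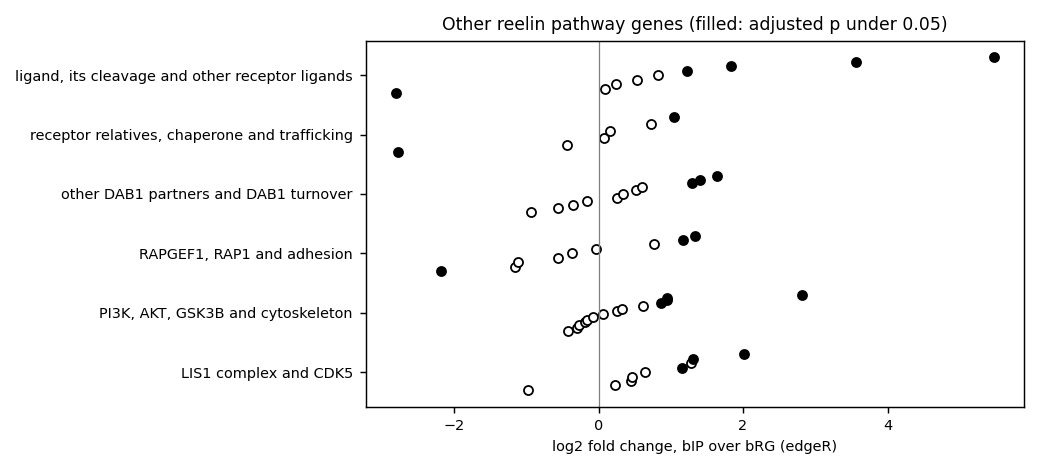
Log2 fold change, bIP over bRG (horizontal axis), of 58 other genes of the reelin pathway, grouped by role. Filled points have an edgeR adjusted p under 0.05. There are 17 rises and 3 falls, the furthest right being RELN.

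The genes closest in pattern to each called member were found by the root-mean-square difference of log2 CPM over the 13 libraries, each gene centred on its own mean, among 9189 genes. For DAB1 they were NEO1 (0.23), ANKS1B (0.25) and XPR1 (0.28), against a standard deviation of DAB1 itself of 1.22. NEO1, a netrin family receptor, averaged 472 CPM in N, 273 in bIP, 78.8 in bRG and 83.7 in aRG. LRP8 was closest to ACVR1B (0.16), MEX3B (0.18) and GOLGA8A (0.18), beside its own standard deviation of 0.48. GOLGA8A belongs to a family of near-identical copies, so its reads are uncertain. VLDLR was closest to DTNA (0.29), STXBP5 (0.29) and PPFIA2 (0.29), beside 0.88. SRC was closest to CERS4 (0.18), KLHL17 (0.27) and FCHSD1 (0.27), beside 0.78. The points share libraries and depth, and the likeness is a description of these 13 libraries.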

How the data were processed

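Raw read counts per gene symbol, deposited by the authors without normalization, came in one table with 18137 genes (hg38) and another with 60583 named genes (gorGor6, so called in its title). Per the submitters' processing notes, STAR and hg38 were used in a role that is not stated. Neither the annotation nor strand use is given, so overlapping genes are uncertain; RefSeq (NHGRI_mGorGor1-v2.1_pri) places lncRNAs or pseudogenes over LRP8, DAB1 and CRKL. Per the labels' protocols, Smart-seq2 libraries had 12 to 17 PCR cycles and no molecular identifiers. Totals were 5464721 to 12524938 counts per library in the hg38 table and 11835004 to 26173260 in the gorGor6 table, where a row without a name (0.00351% to 0.00768%) was dropped. A neuron column whose number matches no label is the unnumbered N library.

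The hg38 counts of all 13 libraries entered a single edgeR 4.0.16 quasi-likelihood fit in R 4.3.3 (TMM, filterByExpr minimum count 10), one mean per population, with Benjamini-Hochberg adjustment over 16804 genes and calls under 0.05. SE and 95% intervals derive from each fold change with its F value. Ratios used a pseudocount of 0.5, and likeness used log2 CPM (prior count 2) in genes averaging at least 4 with an official symbol. Alternatives were DESeq2 1.42.0, its size factors within edgeR, no filter, gorGor6 counts, a replicate block, fits of only the populations compared, leaving out each library and a ratio pseudocount of 5; a term for library numbers 3 or 4 was added after seeing the data. The fit was first run on simulated counts, drawn independently for each library and without any split by library number. Within populations, chi-square per degree of freedom between libraries was 11.1 to 98, and no pair was treated as duplicated. Besides the members, named genes were RELN, pathway genes with the smallest p, the 3 most like each called member, and others marked as chosen after their values were seen. Members and lists were chosen with earlier results of these data known.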

Additional observations from a re-analysis of the deposited data

Results flagged for a closer look

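VLDLR in bRG library 3 stood apart from the other bRG libraries, at 112 CPM where they measured 29.4, 34.5 and 36.8. The gap to the nearest of them was 0.91 of the whole range, above the critical value of Dixon's test at the 95% level for 4 libraries. It was the only one of 14 groups examined (7 genes in bRG and in aRG) to do so, and chance flags about 1 in 20. In the gorGor6 table VLDLR measured 20.8 CPM in that library and 12.2, 5.69 and 9.28 in the other 3. Dixon's test was not run on the gorGor6 values.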

How the results depend on the processing

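Of the 13 member differences called by edgeR, the 4 of DAB1 stayed called under every alternative run, and the 4 of SRC did except in the gorGor6 table, where the one for N against bRG turned to -0.336. Members called for N against bRG numbered 2 in place of 4 in the gorGor6 table, with the replicate block, with the term for library numbers and with only those populations fitted. The 2 were LRP8 and DAB1 in the gorGor6 table, and DAB1 and SRC in the other fits named. The gorGor6 counts gave 1 member called for bIP against bRG, 1 for bIP against aRG and 2 among the 4 populations. For bIP against aRG 5 were called with only those populations fitted, CRKL lower among them. Leaving out 1 library gave 2 to 4 members for N against bRG. It gave shares of variance between populations of 0.402 to 0.781 for LRP8 to VLDLR (0.484 with all libraries) and 0.618 to 0.782 for FYN to SRC (0.671). All genes called for N against bIP were 19, and 171 with DESeq2, 48 with only those populations, 1 with the replicate block, 3 with the number term and 0 to 70 with 1 library left out (lowest by edgeR without the unnumbered N library, where 546 had an unadjusted p under 0.05, highest without bRG library 3). For N against aRG 3320 genes were called, and 1988 with the replicate block, 2193 with the number term and 1903 to 4470 with 1 library left out. For N against bRG 3321 were called, and 1822 with the replicate block, 1947 with the number term, 2027 with only those populations and 1698 to 4500 with 1 library left out. For bRG against aRG 211 were called, and 373 with DESeq2 and 131 to 240 with 1 library left out. The causes were not tested. The block and number fits left out the unnumbered N library, so that N had 1 library, assumed to vary like the others. Same-numbered libraries deviated together with correlations above 0.1 in 5 of 10 pairs (-0.0127 to 0.387). Libraries with different numbers had correlations of -0.28 to 0.212. A library's best match in another population had its number in 7 of 20 cases. The numbers were not taken as pairs, and any structure that same-numbered libraries share was left out of the main fit. Under the block, LRP8 was not called for N against aRG or bRG (edgeR adjusted p = 0.0521 and 0.183) nor VLDLR for N against bRG (0.0594), and FYN to SRC gave 0.85 (exact adjusted p = 0.0868). Of 840 refitted member differences, 43 that were not called changed sign, and none of these was called after the change. The log2 fold change of CRK turned to -0.0396 (N against aRG), -0.0466 (N against bRG), -0.0607 (bIP against aRG), -0.0677 (bIP against bRG) and 0.00703 (bRG against aRG) with the replicate block, to -0.114 (bIP against aRG) and -0.108 (bIP against bRG) with the number term, and for N against bIP to -0.00321 with DESeq2, -0.00303 with its size factors and -0.0516 with only those populations. CRKL for N against aRG turned to 0.074 with the block and 0.0642 with the number term, FYN to -0.0167 for bIP against aRG with the block and 0.0516 for N against bRG in the gorGor6 table, and SRC for N against bIP to -0.931 in the gorGor6 table and -0.0348 with only those populations. With 1 library left out, CRK ranged from -0.349 to 0.458 for N against aRG, -0.404 to 0.404 for N against bIP, -0.277 to 0.531 for N against bRG, -0.181 to 0.369 for bIP against aRG, -0.0669 to 0.44 for bIP against bRG and -0.307 to 0.196 for bRG against aRG. CRKL ranged from -0.279 to 0.0815 for N against aRG. FYN ranged from -0.132 to 0.0816 for N against bRG and -0.0686 to 0.203 for bIP against aRG, and SRC from -0.0497 to 0.175 for N against bIP and -0.0473 to 0.293 for bRG against aRG.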
